A study of Drosophila melanogaster with 6 samples.

Results

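Ribosome-depleted total RNA of Drosophila melanogaster eye discs was compared between a group labelled as overexpressing Hsromega and a control. Described here are the loci that reached an FPKM of 1 in at least 1 of the groups, which are 9977 of 15904 loci, or 62.7%. FPKM is a fragment count scaled to transcript length and to the mapped fragments of the library. Of the members, 8966 reached FPKM 1 in both groups, 563 in the control alone and 448 in overexpression alone. All animals were wandering larvae late in the third instar in a w1118 background. The control genotype was w1118; sev-GAL4/UAS-GFP, and the overexpression genotype was w1118; sev-GAL4/UAS-GFP; EP3037. The series' design text leaves UAS-GFP out of the overexpression cross, and the sample labels list it. A group labelled RNAi (w1118; sev-GAL4/UAS-GFP';hsromegaRNAi) shares this control, and its values are set beside those of overexpression with no comparison drawn. Each group had 2 libraries, each from 30 pairs of discs. Nothing in the labels says that the libraries came from separate cultures, so the spread behind each p may be technical. The authors' tables hold 1 pooled FPKM per group, with no value per library, so the depth is unknown and no SD is given for any level.

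Hsromega is a heat-inducible long non-coding RNA gene whose nuclear transcripts organise the omega speckles, bodies in which hnRNPs and related RNA-binding proteins are stored. EP3037 is an insertion at Hsromega through which GAL4 can drive the gene, and sev-GAL4 is active in a subset of cells of the differentiating retina. The larval eye disc forms the retina behind a moving furrow, from which R8 founder cells recruit the other photoreceptors and then the cone cells. Whole discs also hold undifferentiated and peripodial cells in which the driver is not active, and fewer cells of a type cannot be told apart in such samples from less RNA per cell.

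Hsromega (FBgn0001234, chromosome 3R, 21296127 to 21317836 in dm6, plus strand, non-coding) stood at FPKM 202 in the control and 376 in overexpression, a ratio of 1.86. The authors' deposited table gives it p = 0.323 and q = 0.758, so the labels were not checked by a passing change in the targeted RNA. The RNAi-labelled group stood at 204. Within 50 kb on either side of Hsromega, 9 loci were members and 0 were called, with log2 ratios from -1.51 to 0.71. The lowest of these was CG16791, just downstream, at 28.9 and 10.05. The highest was AP-2sigma, a clathrin adaptor subunit gene, at 53.6 and 87.8. The gene sev, which encodes the receptor tyrosine kinase of the R7 precursor, was at 14.7 in the control and 5.32 in overexpression, with p = 0.0284 and q = 0.203 in the authors' deposited table. Both genes have long transcripts, of 8171 nt for sev and 21216 nt for Hsromega. With the running median over transcript length subtracted, the log2 ratio of sev went from -1.45 to -0.24. That of Hsromega went from 0.90 to 2.19. The locus joining w with CG32795 was at 61.7 and 86.1.

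Both groups had the transcription factors that define the eye field. The Pax6 genes toy and ey were at 107 and 25.1 in the control and at 93.7 and 19.3 in overexpression. The retinal determination genes eya, so and dac were at 71.2, 26.5 and 24.5 in the control and at 21.5, 11.2 and 7.23 in overexpression. The founder cell genes ato and sens were at 31.7 and 5.81 in the control and at 20.7 and 5.07 in overexpression. The pan-neuronal gene elav was at 21.2 and 5.82. None of these 8 genes was called, and all of them lay lower in overexpression. The eye genes gl and lz, given below with the fate factors, were called lowered, from 32.0 to 7.74 and from 16.4 to 3.03.

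Across the members the comparison was centred near no change, with a long lower side among well expressed loci. The median log2 ratio, taken with 0.1 added to each FPKM, was 0.03, with 5170 members higher and 4807 lower. The 5th and 95th percentiles were -1.65 and 0.99. At least 2-fold higher were 487 members (4.88%) and at least 2-fold lower were 1349 (13.5%). A locus is called here where the q of the authors' deposited table is 0.05 or less. By that rule 121 of 11372 tested loci were lowered (1.06%) and 15 were raised (0.132%), and 120 of the lowered and 12 of the raised loci are members. Benjamini-Hochberg recomputed from the p-values of the authors' deposited table leaves 0 calls, the smallest adjusted value being 0.0948, while 635 loci were lower and 66 higher at an unadjusted p of 0.05 or less. The calls below therefore rest on the authors' own adjustment.

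**Figure D1:**
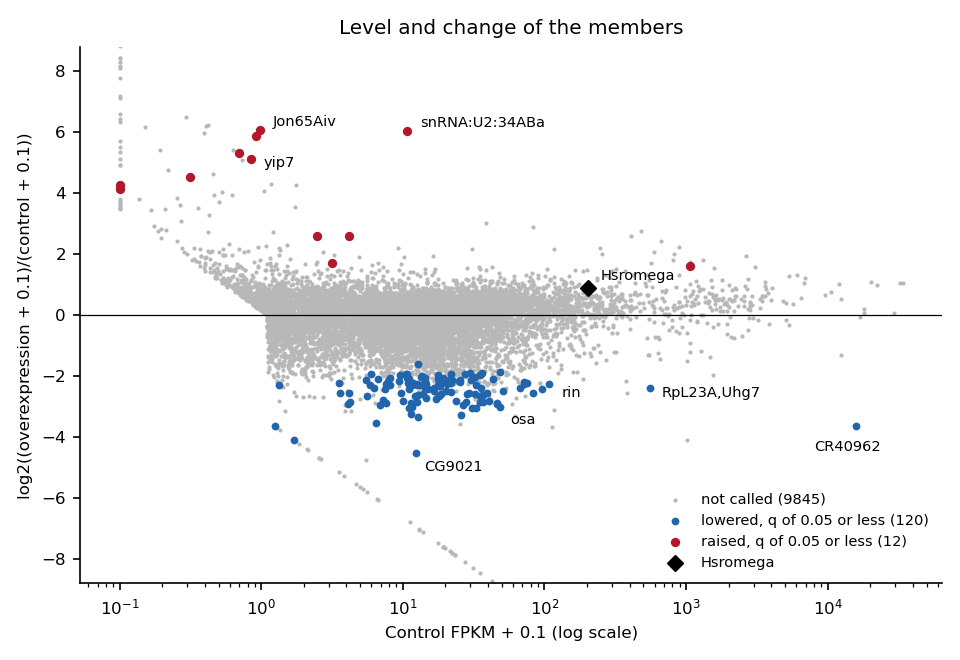
Each point is a member, with its control FPKM plus 0.1 on a log axis and its log2 ratio of overexpression to control on the vertical axis; 39 members beyond 8.8 in size are not drawn. The 120 lowered members (blue) lie mostly between control FPKM of 5 and 50, and 7 of the 12 raised members (red) lie below 1 in the control. By the membership rule a lowered member cannot lie below 1 in the control, so that part of the difference is built in. Hsromega is the black diamond.

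Raised and lowered loci differed in where they started. The 121 lowered loci had a median FPKM of 16.6 in the control and 3.11 in overexpression, and 102 of them lay between FPKM 5 and 50 in the control. Those with a value in both groups were lower by 5.29-fold at the median, with quartiles of 4.60 and 6.91. The error on the log2 scale implied by the statistic of the authors' deposited table had a median of 0.94 among them, ranging from 0.83 to 2.09. The 15 raised loci had a median FPKM of 0.747 in the control and 14.7 in overexpression, and 5 of them reached FPKM 1 in the control. Uncalled members also lay far from the centre, 177 at a log2 ratio of -2 or less and 111 at 2 or more, of which 55 and 43 were small RNA genes.

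Of the 15 raised loci, 3 were Jonah and related protease genes, which lie in a single run on chromosome 3L. Jon65Aiv, a Jonah serine protease gene of the larval gut (chromosome 3L, 6039155 to 6040135), rose from FPKM 0.886 to 66.7, a 75.4-fold ratio with an implied error of 1.23 on the log2 scale. Jon65Aiii rose from 0.824 to 54.0, and the related protease gene yip7 from 0.747 to 29.7. These loci lie in a run of 16.5 kb in which the remaining annotated loci, CG6462 and CR43952, were at 0.041 and 0.137 in overexpression and listed at 0 in the control. The authors' deposited table gives q = 0.00653 for Jon65Aiv, 0.00565 for Jon65Aiii and 0.0172 for yip7. Jon65Aiii and Jon65Aiv are close copies, so the division of fragments between them is uncertain.

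A few loci of the digestive enzyme families carried higher summed levels, mostly without calls. Over all tested loci 0.132% were raised, and 5170 of all 9977 members were higher. Of 17 Jonah and yip7 loci 12 were higher and 3 were raised, and their summed FPKM was 8.62 in the control, 176 in overexpression and 12.9 in the RNAi-labelled group. Of 7 lysozyme loci, whose products digest bacteria in the gut, 6 were higher and 0 called, with sums of 2.33, 61.5 and 4.64. Of 10 trypsin loci 5 were higher and 0 called, with sums of 4.11, 16.98 and 2.73. No lysozyme passed: LysB stood at 0.196 and 26.6 with p = 0.266 in the authors' deposited table, and LysS at 0.627 and 24.9 with p = 0.221. These lysozyme genes are close copies in a single cluster, so the division of fragments between them is uncertain. The trypsin gene deltaTry stood at 0.0519 and 10.97 and Jon25Bi at 0.353 and 11.1, both uncalled. Other family members were equal or lower, among them Jon66Ci and Jon74E, at 0.953 and 0.412 and at 1.74 and 1.05.

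The gut list was not the only tissue list with a higher sum. Of 34 gut loci 17 were members and 3 were raised, beside 0.132% of all tested loci. The gut sums were 20.3 in the control, 234 in overexpression and 22.2 in the RNAi-labelled group. Most of the gut members reached FPKM 1 through overexpression alone, so the filter favours a high median: it was 2.81 over the members, 1.11 with pseudocount 1 and 0.70 with no filter. The defining amylase genes Amy-p and Amy-d stood at 0 and 0.0644 in the control and at 0.0295 and 0 in overexpression. All 8 fat body loci were higher, with 0 called, a median of 1.41 and sums of 51.3, 120 and 249. Among them the larval serum protein gene Lsp2 was at 6.29 and 16.8 and the fat body protein gene Fbp1 at 3.71 and 10.3, with p = 0.0123 for Fbp1 in the authors' deposited table. Salivary gland loci summed to 51.7 in the control and 83.4 in overexpression, against 3295 in the RNAi-labelled group. Muscle loci summed to 3458 and 3689, glia loci to 319 and 328, haemocyte loci to 85.7 and 69.1 and brain neuron loci to 28.01 and 21.3. The germline and testis loci summed to 9.75 and 13.7, with 2 of the 14 at 0 in the control and 2 at 0 in overexpression. The part of carried-over tissue in these results was not tested.

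**Figure D2:**
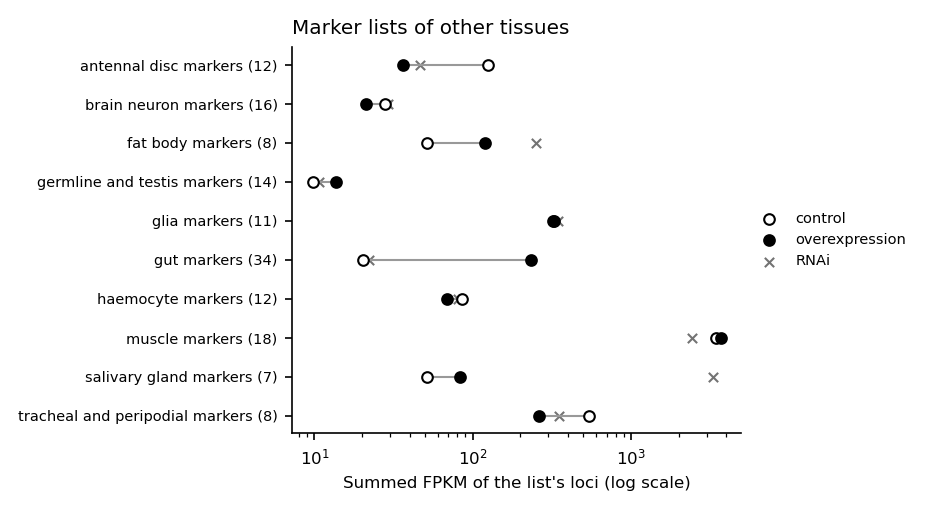
Summed FPKM (log axis) of the loci in each list of markers of other tissues, with the number of loci in brackets, in the control (open circles), overexpression (filled circles) and the RNAi-labelled group (crosses). Gut sums stand apart in overexpression (234 against 20.3 in the control), and antennal sums lie lower (36.1 against 125).

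Other raised loci had diverse roles. The gene pst (pastrel), known for resistance to viruses, rose from FPKM 2.36 to 14.7 with q = 0.00472 in the authors' deposited table. CG6933 rose from 0.212 to 7.07, CG34166 from 4.09 to 25.3 and CG30345 from 3.04 to 10.1, genes whose roles are left out here. CG34166 was at 49.5 in the RNAi-labelled group, where pst was at 4.33 and CG6933 at 0.363. The locus joining CG17048, CR44206 and the microRNA gene mir-184 rose from 0.601 to 28.1, and which of its genes gave the fragments is not resolved. The spliceosomal RNA locus snRNA:U2:34ABa rose from 10.7 to 708 and the pseudouridylation guide snoRNA:Psi28S-3342 from 1060 to 3247. U2 snRNA genes are near-identical copies, so the division of fragments between them is uncertain. Raised from a control listed at 0 were CG33346 at 1.84 in overexpression, the immune-induced peptide gene IM23 at 1.68, CG30413 at 0.829, CR45331 at 0.823 and CG9406 at 0.755. Their levels were close to or below the threshold of 1 that defines the members.

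The largest uncalled ratios also included genes that stood low in the control. Genes CG42834, CG14332 and CG33333 lie beside each other on chromosome 3R and stood at 0.321, 0.310 and 0.292 in the control and at 31.9, 30.5 and 24.7 in overexpression. All were high in the RNAi-labelled group too, at 25.02, 27.02 and 8.85. CG31789 stood at 0.532 and 27.3 and CG14302 at 1.67 and 33.9, and in the RNAi-labelled group at 0.873 and 2.74. Among these, CG14302 had the smallest p in the authors' deposited table, 0.0175.

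**Figure D3:**
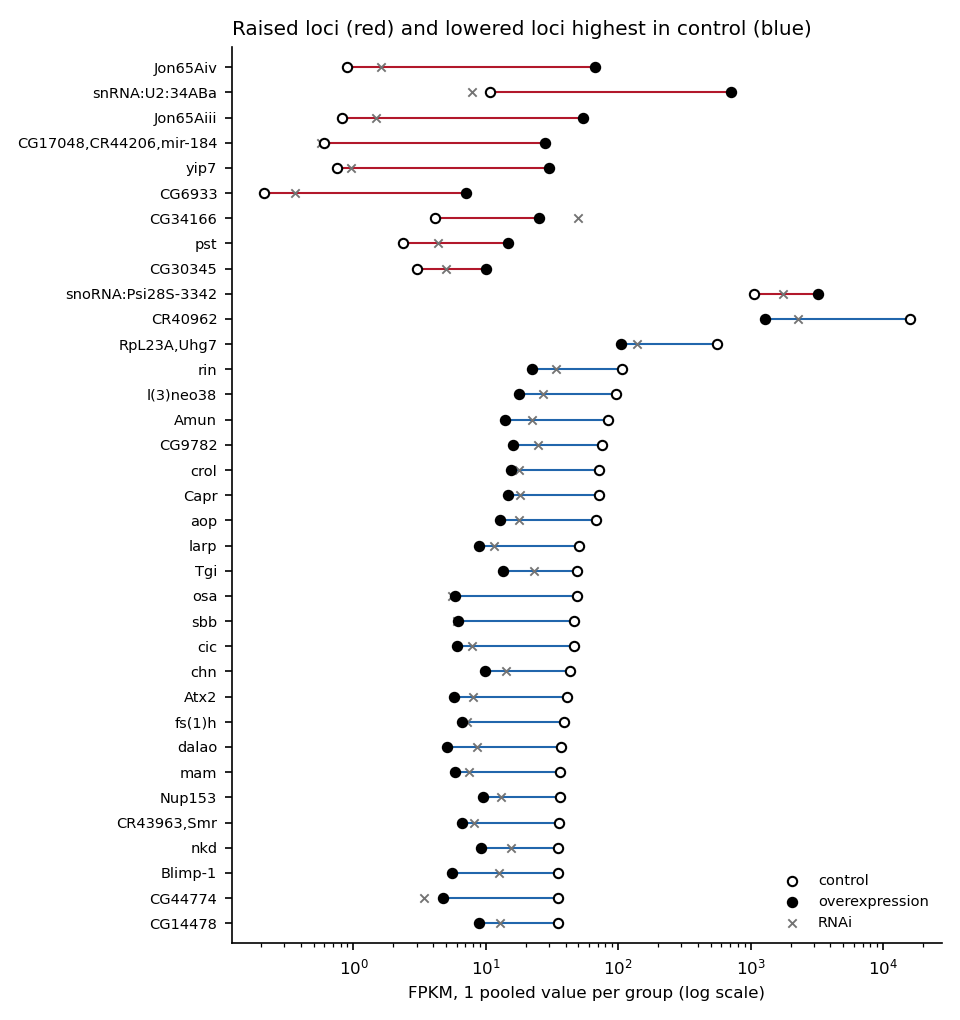
FPKM (log axis) of the 10 raised loci with a value in both groups (red) and of the 25 lowered loci highest in the control (blue), with open circles for the control, filled circles for overexpression and crosses for the RNAi-labelled group. Most raised loci start below FPKM 5, and the lowered loci shown fall from 34.9 or more.

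Among the 25 lowered loci highest in the control were rin, Capr, larp and Atx2, which encode RNA-binding proteins and were put together here after their values were seen. The gene rin (rasputin, the fly G3BP of stress granules) fell from FPKM 107 to 22.3, Capr (Caprin, a partner of translational regulators) from 71.3 to 14.7, larp (a La-related protein that binds poly(A)-binding protein) from 50.6 to 8.93 and Atx2 (Ataxin-2) from 40.7 to 5.71. The RNAi-labelled group stood at 33.6, 18.1, 11.5 and 7.99 for these genes. Their q in the authors' deposited table ranged from 0.00472 for Atx2 to 0.0372 for Capr. The related gene lig (lingerer), a partner of rin and Capr in the fly, was at 116 and 13.2 and missed the call with p = 0.00755 and q = 0.080 in the authors' deposited table. The locus CR40962 of chromosome X fell from 15898 to 1278. It was not matched to the annotation, so its transcript type and length are not known here. The locus joining the ribosomal protein gene RpL23A with the snoRNA host Uhg7 fell from 552 to 105.

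The Brahma and trithorax list, genes of chromatin remodelling and of coactivators that keep genes active, held 5 lowered loci among 29 members and 0 raised, with a median log2 ratio of -1.40 beside 0.03 over all members and -0.99 over all members of 6000 to 8000 nt. With the running median over transcript length subtracted, the list median was -0.30. Over all tested loci 1.06% were lowered, and the median transcript of the list is 6486 nt, in that length range, where 5.53% of all members were lowered. For the lists below, the length-subtracted median is the same quantity. The lowered members of the Brahma and trithorax list were the Brahma subunit genes osa (48.7 to 5.89), dalao (36.8 to 5.07) and Bap170 (21.6 to 5.62), the CBP acetyltransferase gene nej (26.3 to 3.35) and kto, the Med12 subunit gene of the Mediator kinase module (14.4 to 2.91). Other subunits of the same complexes were not called: the ATPase gene brm was at 23.2 and 6.43 and mor at 45.5 and 16.9. Snr1 and Bap60, also subunits, were at 34.9 and 32.2 and at 64.1 and 56.5, so the subunit genes of this complex were spread from an 8.26-fold lower level in osa to nearly equal levels. Members that lay higher included Nipped-A (34.8 and 54.9) and Nipped-B (37.4 and 57.9). Summed over the list, FPKM was 903 in the control, 558 in overexpression and 556 in the RNAi-labelled group.

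The Polycomb list, whose products keep genes silent, had 2 lowered loci of 21 members, a median of -0.99 and a length-subtracted median of -0.72. At its median transcript of 4241 nt, 3.29% of all members were lowered. The lowered loci of the list were Psc, a subunit gene of the PRC1 complex (18.04 to 3.56), and Su(z)12, a subunit gene of PRC2 (10.8 to 2.24). The catalytic subunit gene of PRC2, E(z), was at 9.91 and 9.50, and Pc at 11.6 and 8.69. Other lowered chromatin and transcription genes were fs(1)h, a BET bromodomain gene (39.2 to 6.55), Gug, the Atrophin corepressor gene (28.3 to 4.59), the locus of the corepressor gene Smr with CR43963 (35.4 to 6.63), vfl, which encodes Zelda (30.8 to 3.61), and CycT, the cyclin of P-TEFb (17.7 to 3.51). These other genes are on no fixed list.

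**Figure D4:**
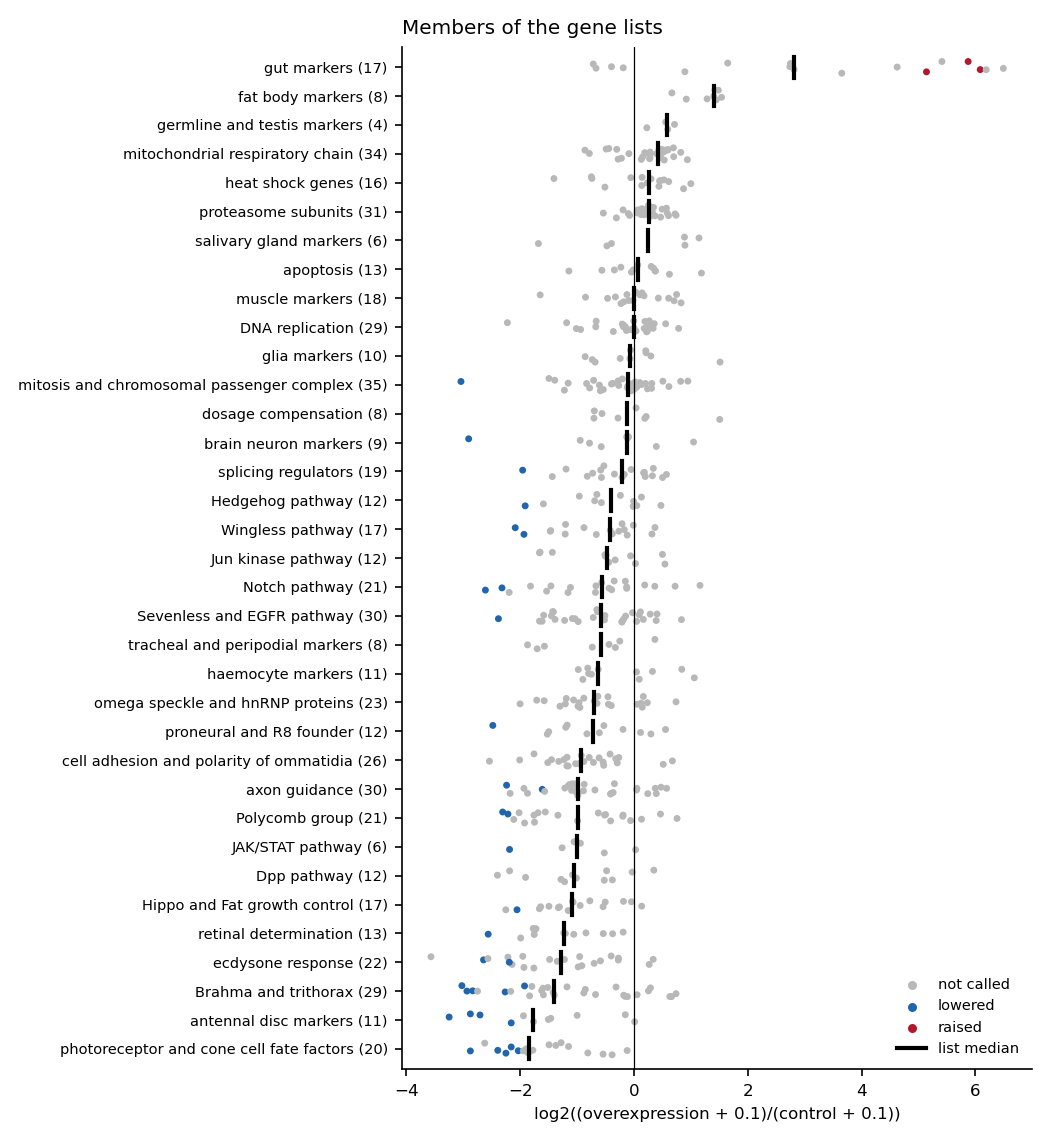
Log2 ratio of overexpression to control for each member (point) of the 35 gene lists, with the number of members in brackets and the list median as a black bar; called loci are blue where lowered and red where raised. Of the 35 medians 26 lie below 0 and 7 at -1 or less, and the gut and fat body lists stand farthest to the right, where for the gut list the filter favours high values (its median is 0.70 with no filter and that of the salivary gland list 0.83).

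Factors of photoreceptor and cone cell fate had a median of -1.85 over 20 members, all of which were lower. This and the antennal disc list had the lowest medians of the 35 lists, and the antennal one was the lower at FPKM 5 or more (-1.94 against -1.85) and with length subtracted (-1.28 against -1.26). Of the fate factors 5 were lowered; at their median transcript of 4505 nt, 3.29% of all members were. They were gl, the zinc finger factor required for photoreceptor differentiation (32.0 to 7.74), lz, the Runx factor of the cells recruited late (16.4 to 3.03), the homeobox gene ct of cone cells (11.3 to 1.46), ss, the bHLH-PAS factor of R7 subtype (9.27 to 2.00), and salm (7.48 to 1.49). Uncalled members included sd at 50.8 and 34.8, B-H2 at 17.6 and 5.06 and pros, a gene of R7 and cone cells, at 6.10 and 0.905. The members nearest to equal levels were nerfin-1 (9.30 and 7.09) and sv, the Pax2 gene of cone cells on chromosome 4 (8.16 and 7.49). The lowered fate factor genes ct and ss are also antennal genes. Summed over the fate list, FPKM was 264 in the control, 104 in overexpression and 126 in the RNAi-labelled group.

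Antennal disc markers were lower as well. Of 11 members, 4 were lowered, with a median of -1.77. At the list's median transcript of 3247 nt, 0.699% of all members were lowered. The summed level of the 12 loci was 125 in the control, 36.1 in overexpression and 46.3 in the RNAi-labelled group. Lowered beside ct and ss were disco (11.3 to 1.10) and rn (14.4 to 2.12), both of the leg and antennal pattern. The distal appendage gene Dll was at 26.2 and 9.15, Lim1 at 7.59 and 2.16 and bab2 at 14.7 and 5.28, none of them called, and C15 was at 3.19 and 3.21. Without the shared ct and ss, the fate list had 3 lowered of 18 members and a median of -1.81, and the antennal list 2 of 9 and -1.51. The part of the antennal share of the dissected tissue in these results was not tested.

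Retinal determination genes were lower in all 13 members, with a median of -1.23 and a length-subtracted median of -1.08. The lowered member was toe, a Pax gene of the eye (4.07 to 0.605), and its paralogue eyg was uncalled at 10.3 and 2.53. Optix was at 13.8 and 3.97, dan at 15.6 and 4.56 and hth, a TALE homeobox gene of the undifferentiated anterior cells, at 110 and 52.9. An unadjusted p of 0.05 or less in the authors' deposited table was held by 8 of the 13, against 676 of all 9977 members. At the list's median transcript of 3462 nt, 0.699% of all members were called lowered. In the proneural list scrt fell (20.1 to 3.52) as 1 of 12 members, with a median of -0.72 and a length-subtracted median of -0.70, and the lola locus, the highest of them, was at 247 and 107. The proneural list has a median transcript of 2440.5 nt, in the same length range, where 0.699% of all members were lowered.

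Signalling lists had scattered calls. In the Notch list, the coactivator gene mam (36.5 to 5.89) and the repressor gene H (18.1 to 3.55) fell, as 2 of 21 members, with a median of -0.57 and a length-subtracted median of -0.25. At the list's median transcript of 3992 nt, 0.699% of all members were lowered. The receptor gene N was at 71.0 and 25.7, its ligand gene Dl at 40.2 and 13.8, and the targets E(spl)mdelta-HLH and E(spl)mbeta-HLH lay higher, at 51.3 and 84.6 and at 39.9 and 51.4. In the Sevenless and EGFR list the ETS repressor gene aop fell (67.7 to 12.9) as 1 of 30 members, with a median of -0.58 and a length-subtracted median of -0.10. At this list's median transcript of 4263.5 nt, 3.29% of all members were lowered. Sos and sty were uncalled at 10.4 and 3.21 and at 23.1 and 7.61, whereas Ras85D was at 64.5 and 85.3 and the MAP kinase gene rl at 57.0 and 102. Outside the lists, cic, an HMG-box repressor that EGFR signalling relieves, fell from 45.9 to 6.03. Named genes of the same pathway thus lay on either side of equal levels, with no length trend subtracted for single genes.

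Among pathways of the furrow, the Hedgehog receptor gene ptc fell (29.7 to 7.80) as 1 of 12 members with a median of -0.41 (length-subtracted -0.10), while hh and ci stood at 18.3 and 18.1 and at 110 and 109. The Dpp list had 0 called of 12 and a median of -1.05 (length-subtracted -0.75), with dpp itself at 13.98 and 5.68 and its feedback inhibitor Dad at 18.5 and 7.89. In the Wingless list pygo, a nuclear coactivator gene (10.9 to 2.48), and nkd, a feedback inhibitor gene (35.3 to 9.17), fell as 2 of 17 members, with a median of -0.42 (length-subtracted -0.06) and wg at 21.2 and 19.5. The JAK/STAT receptor gene dome fell (25.3 to 5.49) as 1 of 6 members, and Stat92E was at 51.7 and 52.7. The Jun kinase list had 0 called of 12 and a median of -0.47 (length-subtracted -0.23). Of the ligand genes named here, hh and wg thus stood at nearly equal levels in both groups, and dpp was lower in overexpression. The transcription factor genes ci and Stat92E were nearly equal too. Of these, ci lies on chromosome 4, whose members had a median log2 ratio of 0.50.

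Growth and hormone genes followed. In the Hippo and Fat list, 16 of 17 members were lower, with a median of -1.08 (length-subtracted -0.69). The upstream activator gene kibra fell (8.04 to 1.86) as 1 of the 17, and ex was uncalled at 43.2 and 8.98. At the list's median transcript of 3551 nt, 0.699% of all members were lowered. Tgi, a cofactor gene that opposes Yki, is on no list and fell from 48.8 to 13.4. In the ecdysone list 20 of 22 members were lower, with a median of -1.29 (length-subtracted -0.61) and sums of 2333 and 977. Its 2 lowered members were Blimp-1 (35.1 to 5.53) and crol (71.4 to 15.5), both zinc finger genes of the response. At the list's median transcript of 6079.5 nt, 5.53% of all members were lowered. Of its uncalled members, br stood at 384 and 64.7, ImpE2 at 1075 and 460 and Hr4 at 25.4 and 2.05. The receptor gene EcR was at 42.5 and 28.2. The authors' deposited table gives br p = 0.0043, and 11 of the 22 had an unadjusted p of 0.05 or less.

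Adhesion, guidance and neuronal genes were mostly long. The ommatidial adhesion and polarity list had 0 called of 26 and a median of -0.94, which became -0.05 once the trend with length was subtracted. The axon guidance list had 2 of 30 lowered and a median of -0.98, which became 0.23. At its median transcript of 6263 nt 5.53% of all members were lowered, so its share of called genes was near that of all members of like length. Lowered were the cell recognition genes Dscam1 (12.6 to 4.06) and Dscam2 (3.43 to 0.647). The guidance receptor genes PlexA and PlexB and the ligand and receptor genes Ephrin and Eph, all of chromosome 4, lay higher, at 62.3 and 81.7, 47.9 and 71.2, 48.5 and 62.8 and 56.7 and 78.8. In the brain neuron list the active zone gene brp fell (3.99 to 0.446) as 1 of 9 members, with a list median of -0.13 (length-subtracted 0.50). At that list's median transcript of 5872 nt, 3.29% of all members were lowered. Outside the lists Appl, the fly amyloid precursor gene, fell from 32.5 to 5.30, and the locus of the microtubule protein gene futsch with Gr2a from 12.7 to 2.00.

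Cell division and housekeeping lists lay close to the centre or above it. Incenp, a chromosomal passenger gene, fell (32.8 to 3.90) as 1 of 35 mitosis members, while its partners ial, borr and Det were at 47.0 and 48.2, 33.3 and 30.8 and 22.3 and 34.2. At the mitosis list's median transcript of 2699 nt, 0.699% of all members were lowered. The mitosis median was -0.11, and the replication list had 0 called of 29 with a median of -0.004. Br140, a bromodomain gene, lies beside Incenp within 9.52 kb on chromosome 2R and fell from 5.89 to 1.48. Proteasome subunits had a median of 0.26 over 31 members, respiratory chain genes 0.42 over 34, cytoplasmic ribosomal proteins 0.49 over 74 and mitochondrial ribosomal proteins 0.37 over 70, all with 0 called. Their length-subtracted medians were 0.02, 0.04, 0.11 and -0.02. Apoptosis genes had a median of 0.06 (length-subtracted 0.25) with 0 called of 13.

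RNA-processing and stress genes, the groups nearest to the known biology of Hsromega, were largely uncalled. The omega speckle and hnRNP list had 0 called of 23 and a median of -0.70, or -0.15 with the length trend subtracted. Its lowest members were nonA at 21.1 and 5.18 and Hrb87F, a major hnRNP of the speckles, at 77.3 and 23.5. Among splicing regulators SRm160 fell (17.7 to 4.49) as 1 of 19. At that list's median transcript of 2558 nt, 0.699% of all members were lowered. Heat shock genes had 0 called of 16 and a median of 0.27 (length-subtracted 0.11), with Hsp23 at 1911 and 2605, Hsp83 at 694 and 959, Hsc70-4 at 2171 and 1298 and the inducible gene Hsp70Bb at 16.3 and 24.97. Levels on either side of the control occurred in all of these lists.

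The ratio followed transcript length. Members with a longest transcript of 300 to 1000 nt had a median log2 ratio of 0.42, those of 2000 to 4000 nt -0.10, those of 4000 to 6000 nt -0.67 and those of 8000 nt or more -1.32. The share called lowered was 0.105%, 0.699%, 3.29% and 13.3% in these bins. Lowered members had a median longest transcript of 6004 nt, a coding length of 3280.5 nt, a 3' UTR of 1310 nt and 6 exons. Uncalled members had 1819 nt, 1290 nt, 270 nt and 4 exons. Within the range of 4000 to 8000 nt, 54 lowered members had a 3' UTR of 1310 nt and 5.5 exons at the median, and 1315 uncalled members had 1002 nt and 8 exons.

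Subtracting the running median over length left the direction of all 117 lowered loci with a fold and a length. Their selection fixed this, since each had a log2 fold of 1.64 or more in size, larger than the trend at its length. With p rescaled to the new ratio, 18 of the lowered and 5 of 10 raised loci still passed. The limit was the largest p that was called in the authors' deposited table, 0.00395. The 18 were CG9021, CG15021, disco, Incenp, E5, dalao, the RpL23A locus, CG44774, toe, CG10555, Np, opa, CG9782, l(2)dtl, Nf-YC, Amun, mas and Tgi. The 5 were pst, yip7, the mir-184 locus, Jon65Aiii and Jon65Aiv. Their transcripts were shorter than those of most lowered loci, such as 1382 nt for CG9021, which fell from FPKM 12.3 to 0.446 and stood at 18.2 in the RNAi-labelled group. Among long genes, osa had a log2 ratio of -3.03 before and -1.71 after the subtraction.

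**Figure D5:**
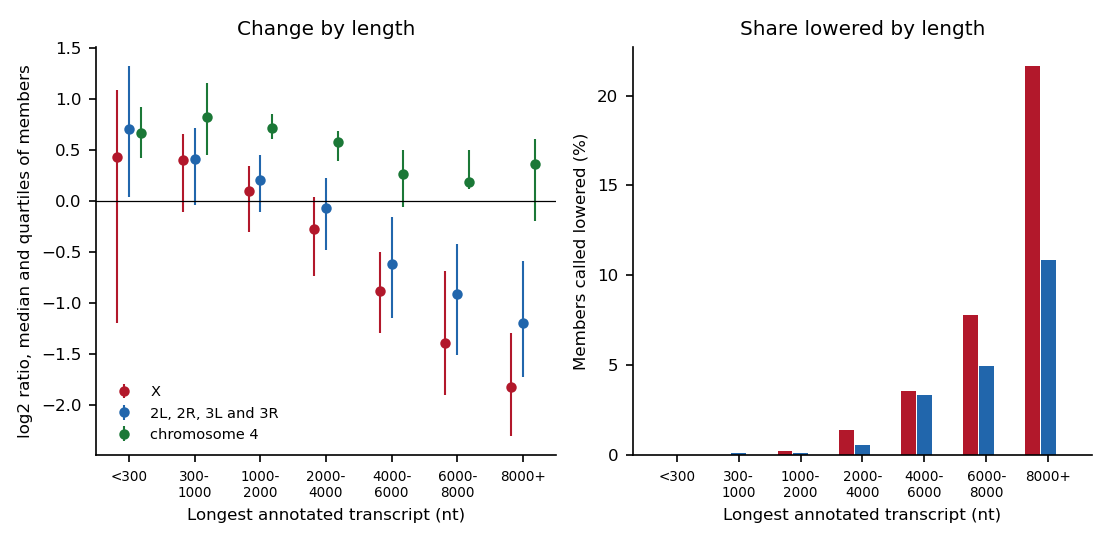
Left, the median log2 ratio with its quartiles for members of chromosome X (red), arms 2L, 2R, 3L and 3R (blue) and chromosome 4 (green) in 7 bins of longest transcript; right, the share of members called lowered in the same bins. Median ratios decline with length on X and on the large autosomes and remain above 0 in each bin of chromosome 4, where 0 members were called.

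Chromosomes differed, by an amount that varied with length. Chromosome X held 1602 members with a median of -0.20, and 38 of them were lowered (2.37%), which is 31.7% of the lowered members against 16.1% of all members. Arms 2L, 2R, 3L and 3R together had a median of 0.07 and 82 lowered of 8284 (0.990%), with 2L the lowest at 10 of 1806 (0.554%). Among transcripts of 8000 nt or more, X had 16 lowered of 74 (21.6%) and a median of -1.83, and the large autosomal arms had 23 of 212 (10.8%) and -1.20. At 4000 to 6000 nt the lowered shares were 3.55% on X and 3.33% on those arms, with medians of -0.88 and -0.61. At 300 to 1000 nt the medians were 0.41 on X and 0.42 on those arms. At 2000 to 4000 nt they were -0.28 and -0.07, with 1.37% and 0.560% lowered. At 6000 to 8000 nt they were -1.40 and -0.92, with 7.78% and 4.96% lowered. In each length bin the median of X was below that of the large autosomal arms. On chromosome 4, with 91 members, 70 were higher and 0 called, the median was 0.50 at a median transcript of 3655 nt. With the trend over length taken off it was 0.77. In its bin of 8000 nt or more, 7 members had a median of 0.37. The RNAi-labelled group had a median of 0.32 on chromosome 4 against the same control. On chromosome X its median was -0.22 and on the large autosomal arms -0.02.

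Genes of dosage compensation and sex determination stand beside these values. The roX RNAs, which target the male X in flies, were at FPKM 173 and 197 for roX1 and at 319 and 906 for roX2. The authors' deposited table gives p = 0.0372 and q = 0.243 for roX2, so it was not called, and the RNAi-labelled group stood at 671. The locus of msl-2 with mir-4971 was at 7.12 and 5.84, mle at 9.00 and 6.06 and mof at 9.56 and 5.82. The locus of Sxl, the switch gene of female identity, with mir-4956 was at 90.2 and 43.1, and tra at 12.4 and 13.98. The sex of the larvae is not given in the labels, and the part of sex ratio in the chromosome X values was not tested.

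Small RNA genes made up a large share of all FPKM, 41.1% in the control and 50.7% in overexpression. The box H/ACA snoRNAs, guides of pseudouridylation, had a median log2 ratio of 0.85 over 106 members with 95 higher and 1 raised, and the box C/D snoRNAs, guides of methylation, 0.59 over 59. With length subtracted these were 0.21 and 0.002. MicroRNA hairpins had a median of -1.87 over 61 members with 0 called, and 30 of the 61 were listed at 0 in overexpression against 11 in the control. Their summed FPKM was higher in overexpression, at 4893 in the control and 6043. Of the 107 members listed at 0 in 1 group, 86 were small RNA genes. Non-coding genes named CR had a median of 0.18 over 517 with 1 lowered, which became -0.20 with length subtracted. Cuticle protein genes had -0.56 over 57 with 0 called, or -0.97 with length subtracted. Among tracheal and peripodial markers the chitin deacetylase genes verm and serp stood at 171 and 46.5 and at 108 and 33.2, and 0 of 8 were called.

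Some called loci lay near each other, and no rate for all loci was worked out beside them. Of the 136 called loci, 16 formed 7 runs with gaps of at most 20 kb, and all loci of each run had the same direction. Since 121 of the 136 were lowered, a shared direction is common by that alone. Runs can also hold uncalled members, as the span from CG34422 to CG7358 holds 9 members. Besides the Jonah run these were Br140 with Incenp, Tgi with Spt20, CG43901 with Myo10A, Nup153 with CG9782, CG34422 with CG34401 and CG7358, and CG14223 with dome. Of the runs, 4 were on chromosome X, which held 31.7% of the lowered members. Nup153, a nuclear pore gene, fell from 36.2 to 9.58 and its neighbour CG9782 from 75.7 to 15.9. Loci lowered to a listing at 0 were CG18294, CG44163 and CG17047, at 1.596, 1.15 and 0.743 in the control.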

How the data were processed

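Ribosomal RNA was removed and stranded libraries were read as 50 nt pairs over 2 lanes, per the labels' protocols. Cuffdiff 2.1.1 and, with no version, Cufflinks, Bowtie and TopHat are named in the submitters' processing notes, with the build dm6. For annotation and strand use nothing is given in the sources used here. Genes that overlap or run antisense are therefore uncertain, as are 504 members that join several genes under 1 value. The authors deposited 1 FPKM per group and locus, pooled over both libraries, with a test statistic (a score), a p-value and a q-value, per the file headers. The deposited table lists overexpression before the control, and signs were turned. The deposited log2 fold was not used; log2 ratios were computed from FPKM plus 0.1 over members, and single-gene folds with no pseudocount. The log2 fold divided by the deposited statistic gave the implied error. A limma fit, planned for values per library, could not be made from pooled values.

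Coordinates are 1-based dm6. Longest transcripts came from Ensembl release 115 of the same assembly, matched for 99.6% of members. The trend with length is the running median of 250 loci on each side. On simulated data with a planted trend, the trend was recovered. A median was checked there only on randomly placed loci, and no gene list was simulated. The members and the 35 gene lists (697 of 705 symbols matched) were chosen with earlier results of these data known, so list counts are descriptions with no test. Named genes are Hsromega, w and sev, all raised loci, the 25 lowered loci highest in the control, called list members, the highest other list members and the uncalled loci with the largest ratios; other genes were chosen after their values were seen. In the tables, 5 names look like dates, as spreadsheets write some symbols. Alternatives tried were other call rules, pseudocounts of 0.01 and 1, FPKM filters, centring, length, and leaving out small RNA or joined loci. Computations used Python 3.11.15, pandas 2.3.3, numpy 2.4.6 and scipy 1.17.1.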

Additional observations from a re-analysis of the deposited data

How the results depend on the processing

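The calls depend on the adjustment. Against 15 raised and 121 lowered loci, Benjamini-Hochberg over the p of the authors' deposited table gave 0 and 0, a q of 0.01 or less gave 5 and 26, an unadjusted p of 0.05 or less gave 66 and 635, and p read from the statistic gave 10 and 3. Of those 13, the called ones were Jon65Aiv, Jon65Aiii, yip7, snRNA:U2:34ABa, CG33346 and CG17047, and the others were small RNA genes; CG33346 and CG17047 have no statistic and kept the p of the authors' deposited table, 5e-05. After subtraction of the length trend, chosen after the data were seen, 5 raised and 18 lowered loci still passed. The 487 members at least 2-fold higher became 309 with pseudocount 1, 1058 with no filter and 282 at FPKM 5 or more.

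Among list medians of 0.1 or more in size, those that changed sign after length subtraction were axon guidance (0.23), mitosis (0.015), salivary gland (-0.15), brain neuron (0.50), haemocyte (0.17) and dosage compensation (0.12), the last also without joined loci (0.035). Of 279 list medians under an alternative, 241 moved by less than 0.25, 31 moved more and those 7 changed sign. Of 527 ratios of called loci, 0 changed sign. Where a called locus had a value in both groups, its log2 fold was 1.61 or more in size. The alternatives were too small to reverse such ratios, so the 0 was fixed by the selection of called loci. Medians under 0.1 in size also crossed 0: glia (0.096) and DNA replication (0.048) after length subtraction, DNA replication (0.0028) at FPKM 5 or more and muscle (-0.028) when centred. The cause of these shifts was not tested. No paired analysis was possible because each group has 1 pooled value, and for the same reason neither library could be left out.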

Other observations

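Some small RNA genes of equal length had identical FPKM in a group. In the control, 4 snoRNA genes of 67 nt (snoRNA:Me18S-A28a, snoRNA:Me28S-G2173, snoRNA:U31:54Ec and snoRNA:U31:54Ed) all stood at FPKM 813, and 10 loci in all formed 4 such sets. In overexpression, 6 loci formed 3 such sets. The statistic and the p of the authors' deposited table also went apart for such genes: snoRNA:U31:54Ec, at 813 and 2854, had a statistic of 61.3 and p = 0.531.

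Summed over all loci, FPKM came to 881816 in the control and 1245860 in overexpression. Members with a control FPKM below 1 had a median log2 ratio of 0.93 over 448 loci, which the membership rule favours, since such loci had to reach FPKM 1 in overexpression. Those with a control FPKM of 20 to 50 had a median of 0.04 over 1930 loci, and 40 of them were lowered.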
